A study of Mus musculus with 12 samples.

Results

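The cytosolic ribosomal protein genes of the mouse descending aorta were compared between 20 and 6 months of age. They were taken as every gene probe whose name is Rpl or Rps with a number, or Rplp0, Rplp1, Rplp2 or Rpsa, leaving out the Rps6k kinases. This gave 168 of 55681 gene probes, standing for 80 of 28112 genes, 49 of the large and 31 of the small ribosomal subunit. Of these genes 76 are the ordinary subunits and 4 are paralogs, namely Rpl3l, Rpl10l, Rpl39l and Rps27l. The samples were total RNA of descending aortas from male C57BL/6 mice, 6 mice at 20 months and 6 mice at 6 months, with no other treatment, after the vessel had been flushed and freed of surrounding fat. Each mouse had its own 1-colour Agilent array, labelled with Cy3, and the values below are log2 signals minus the array's 75th percentile over gene probes.

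A ribosome is built from a large subunit, which joins amino acids, and a small subunit, which reads the messenger RNA, and nearly every protein of either subunit is present once per particle. The messenger RNAs of these proteins carry a run of pyrimidines directly at their 5′ end, the 5′ terminal oligopyrimidine (TOP) tract, through which mTOR signalling sets how much of them is translated. An array of total RNA measures the amount of these messengers and not their translation. In bulk tissue, a smaller share of cells rich in a messenger and less of that messenger per cell cannot be told apart.

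The start sites of some members show what such a tract looks like in the RefSeq windows of build GRCm38.p6. Each line has 10 bases before the annotated start and 20 from it, 5′ to 3′ on the gene's own strand, and capitals mark a run of pyrimidines that begins with a C at the start. Rplp2 (chr7:141447641-141447670, + strand), Rps6 (chr4:86857348-86857377, - strand) and Rps15a (chr7:118116128-118116157, - strand) held a tract there, and Rpl27 (chr11:101442235-101442264, + strand) and Rpl11 (chr4:136053374-136053403, - strand) did not.
Rplp2: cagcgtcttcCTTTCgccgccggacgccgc
Rps6: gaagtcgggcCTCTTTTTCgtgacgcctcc
Rps15a: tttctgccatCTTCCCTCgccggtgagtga
Rpl27: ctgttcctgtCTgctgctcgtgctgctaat
Rpl11: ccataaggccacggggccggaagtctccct

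The promoter table held 56 of the 76 ordinary members. A C followed by at least 4 pyrimidines stood exactly at the annotated start, read on the gene's strand alone, in 13 of the 56 members (23.2%), against 3.01% of 27025 genes. With a shift of up to 5 bases on either side the shares were 46.4% of members and 21.2% of genes. The motif CCGGAAG, searched on both strands of the 300-base window, was found in 42.9% of members and 9.93% of genes. GGGCGG on both strands was found in 60.7% of members and 38.2% of genes. These are matches of letters around annotated starts, and the 13 members with the tract at the start had a median change between the ages of -0.10 log2, beside -0.090 for the 43 without it.

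Each of the 3 slides carried 2 mice per age, and between 48.8% and 56.8% of the gene spots on an array stood well above background. No gene spot was saturated. All arrays at 20 months lay in slide column 3 and those at 6 months in columns 1 and 4, so that column and age cannot be told apart. All 6 smooth muscle markers stood well above background on all 12 arrays. The 8 heart muscle markers, each centred on its 12 arrays, averaged 3.48 in replicate 1 at 20 months, 2.28 in replicate 1 at 6 months, and between -1.59 and 0.38 on the other 10 arrays. Centred in the same way, the T and NK cell list averaged 1.45 in replicate 4 at 6 months, its highest value.

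Of the 80 genes, 77 entered the test, which asked for a signal well above background on 6 or more arrays. They were 46 of the 49 large subunit genes and all 31 small subunit genes. Every one of the 77 was in fact above background on all 12 arrays. The 3 that were not tested are paralogs. Rpl3l, which replaces Rpl3 in striated muscle, was not well above background on any array, including the pair with high heart muscle markers. Rpl39l, a paralog of Rpl39 known from the male germ line, was likewise not well above background on any array, and Rpl10l, the testis paralog of Rpl10, reached it on 1 array at 6 months with 1 of its probes. No fold is given for these.

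None of the 77 tested genes passed the test between the ages. The limma fit over 16850 genes, with Benjamini-Hochberg adjustment, called 0 members at an adjusted p under 0.05, where 0.315% of all genes were called in either direction and 0.0534% were called lower at 20 months. The lowest adjusted p of a member was 0.519, for Rplp0. At an unadjusted p under 0.05 there were 7 members, all of the large subunit and all lower at 20 months. At that level 3.42% of all genes were lower, and 7.99% of all genes reached it in either direction. In none of the 77 tested members were the 6 values of one age clear of the 6 values of the other, a pattern seen in 0.813% of all genes. Taking each probe by itself, 0 of the 161 member probes that entered were called, beside 0.257% of all probes. At an unadjusted p under 0.05, 6 member probes were lower at 20 months, beside 3.43% of all probes.

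The changes were small and mostly of one sign. The fitted change, 20 minus 6 months, was negative in 73 of the 77 genes and positive in 4, with a median of -0.097 log2 beside -0.020 over all genes, of which 56.1% were negative. Among bright genes a negative sign was more common: of 812 other genes with a mean signal of 6 or more, 635 were negative and 177 positive. The members' change ranged from -0.20 in Rpl36 to 0.14 in Rps15a. The 95% intervals of all genes but Rps15a lay between -0.40 and 0.31, so that larger differences than these lay outside the intervals. This sign depended on the scaling: after quantile normalization 38 genes were negative and 39 positive, with a median of 0.00060, and in the table of processed values deposited with the arrays the counts were also 38 and 39. Under median scaling 67 were negative and 10 positive, and under normexp background correction the counts of 73 and 4 did not move.

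**Figure D1:**
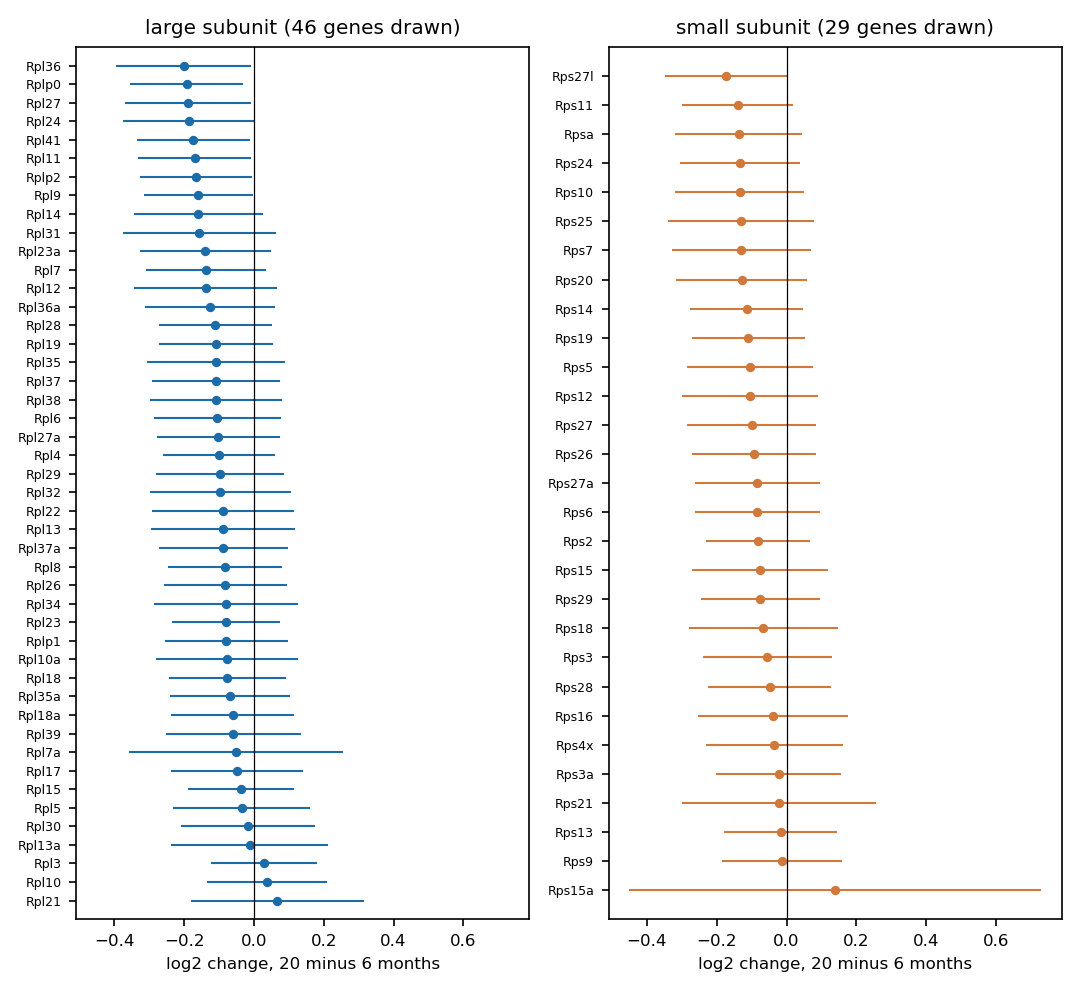
Change of 75 of the 77 tested ribosomal protein genes on the log2 scale, 20 minus 6 months, as a point with its 95% interval, for the large subunit (left panel) and the small subunit (right panel). With this scaling 71 points lie left of 0, whereas after quantile normalization (not drawn) 38 of the 77 genes were negative. All but 7 intervals include 0, and that of Rps15a is the widest.

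Large and small subunit genes had nearly the same median. The median change was -0.097 in the large subunit, with 43 genes negative and 3 positive, and -0.094 in the small subunit, with 30 negative and 1 positive. The difference of these medians was -0.0031 log2. On single arrays the mean of the large subunit genes minus that of the small subunit genes, each gene centred on its 12 arrays, lay between -0.032 and 0.0086 at 20 months and between -0.020 and 0.043 at 6 months, and the ages overlapped. The mean of all 77 genes was -0.046 ± 0.083 at 20 months and 0.046 ± 0.15 at 6 months (SD, n = 6 each).

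The stalk of the large subunit, which recruits the elongation factors, is formed by Rplp0, Rplp1 and Rplp2. Rplp0, the scaffold of the stalk, had 8.31, 8.40 and 8.50 as its lowest, median and highest log2 signal at 20 months, and 8.44, 8.63 and 8.79 at 6 months. The highest values at 20 months thus lay among the lowest at 6 months. Its change was -0.19 ± 0.075 log2 (SE), an unadjusted p of 0.023 and an adjusted p of 0.519 in limma. It was negative under every alternative with a test that gave it a single value, between -0.23 and -0.089, and within single slides, without a test, between -0.27 and -0.100. These settings reuse the same 12 arrays and are no independent evidence for Rplp0, the member with the smallest p. Rplp2, one of the acidic proteins of the stalk, had 8.34, 8.44 and 8.59 at 20 months and 8.52, 8.59 and 8.81 at 6 months, a change of -0.17 ± 0.074 with overlapping ages. Rplp1, the other acidic protein, had a change of -0.080 ± 0.082 and turned to a small positive value after quantile normalization.

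The other large subunit genes with an unadjusted p under 0.05 were Rpl41, Rpl27, Rpl11, Rpl36 and Rpl9. Rpl41, the shortest protein of the ribosome, had 8.09, 8.19 and 8.34 as lowest, median and highest log2 signal at 20 months and 8.20, 8.39 and 8.54 at 6 months. Rpl36 had the most negative change of all members, -0.20 ± 0.090, with 7.62, 7.75 and 7.90 at 20 months and 7.77, 7.90 and 8.21 at 6 months. In both genes the ages overlapped, with replicates 1 and 4 at 6 months as the highest arrays. Rpl11, which belongs to the 5S particle and can bind Mdm2, had 7.78, 7.94 and 8.13 at 20 months and 7.99, 8.09 and 8.25 at 6 months. Its partner in that particle, Rpl5, had a change of -0.036 ± 0.091. Rpl27 had a change of -0.19 ± 0.083 and Rpl9 of -0.16 ± 0.072. The probes used for Rpl27, Rpl11 and Rpl36 share a run of at least 25 bases with a probe of another name. Other probes gave smaller changes in Rpl27 (-0.088), Rpl11 (-0.071 and -0.10) and Rpl36 (-0.17 and -0.13), whereas the second Rpl9 probe had -0.16. The next gene in order of p, Rpl24, which is mutated in the belly spot and tail mouse, lay just beyond that level with a change of -0.19 ± 0.087 (unadjusted p = 0.052, adjusted p = 0.634 in limma).

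**Figure D2:**
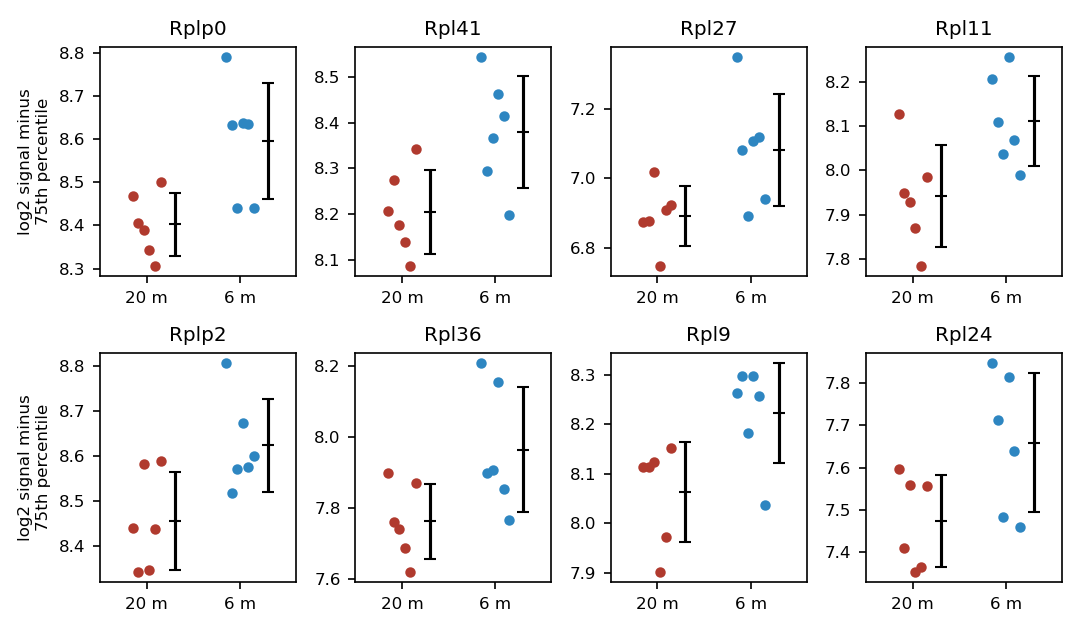
Log2 signal, relative to the array's 75th percentile, of the 8 ribosomal protein genes with the smallest p, in the 6 arrays at 20 months (left, red) and the 6 at 6 months (right, blue), with mean and SD as bars. In every gene the ages overlap.

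The positive changes were those of Rpl21, Rps15a, Rpl10 and Rpl3. Rpl3, close to the peptidyl transferase centre, had 6.80, 6.90 and 7.002 at 20 months and 6.71, 6.91 and 6.99 at 6 months, and Rpl10, a late-joining protein of the same subunit, had 8.81, 8.92 and 9.06 at 20 months and 8.72, 8.90 and 9.05 at 6 months. Their changes of 0.028 ± 0.071 and 0.037 ± 0.080 were smaller than their standard errors. Rpl21 had -1.42, -1.32 and -1.13 at 20 months and -1.78, -1.35 and -1.04 at 6 months, a change of 0.066 ± 0.12 (SE). Its other tested probe had a change of -0.045 ± 0.12. Both Rpl21 probes were far dimmer than the next dimmest tested member, Rps21, with means of 5.12 at 20 months and 5.14 at 6 months. The remaining large subunit genes followed the majority with small values: the changes were -0.11 ± 0.088 in Rpl38, known in mouse for its part in axial patterning, -0.090 ± 0.094 in Rpl22, needed for T cell development in mouse, -0.059 ± 0.090 in Rpl39, a small protein that lines the exit tunnel, and -0.012 ± 0.10 in Rpl13a, a common reference gene. After quantile normalization 11 of the 33 named genes turned positive: Rpl22, Rpl39, Rpl13a, Rpl5, Rpl7a, Rpl17, Rplp1, Rps6, Rps4x, Rps21 and Rps27.

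Among small subunit genes the most negative change was that of Rps27l. This gene, a paralog of Rps27 that p53 induces, had 5.24, 5.35 and 5.64 at 20 months and 5.41, 5.57 and 5.70 at 6 months, a change of -0.17 ± 0.082 with overlapping ages (unadjusted p = 0.054). Rps27 had a change of -0.10 ± 0.085, from a probe that the array files place on another chromosome than the gene. Rps6, the substrate of the S6 kinases, had 7.04, 7.15 and 7.25 at 20 months and 6.98, 7.31 and 7.39 at 6 months, so that its ages overlapped, with 4 of the values at 6 months above the highest at 20 months. Its change was -0.084 ± 0.083, and 0.0035 after quantile normalization. Rpsa, which also serves as a laminin receptor at the cell surface, had a change of -0.14 ± 0.084. Rps19, the gene most often mutated in human Diamond-Blackfan anaemia, had -0.11 ± 0.075, and Rps25, needed for translation from some internal entry sites, -0.13 ± 0.097. Rps4x, encoded on the X chromosome, had -0.035 ± 0.091, from a probe that the array files place on chromosome 3. For Rps14 and Rps20 the changes were -0.11 ± 0.075 and -0.13 ± 0.087, and for Rps21 -0.021 ± 0.13, where the quoted errors are standard errors of the fit.

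The spread between arrays was low and shared. The SD over arrays of one age had a median of 0.133 log2 over the 77 genes, beside 0.203 over all genes, and was under 0.2 in 73 of them. It was 0.134 in the large and 0.133 in the small subunit. The members were also set beside other genes of the same mean signal. In the band from 7 to 8 the median SD was 0.130 for 24 members and 0.159 for 262 other genes, and in the band above 8 it was 0.131 for 18 members and 0.159 for 127 other genes. In these bands the median change was -0.093 and -0.12 in members and -0.087 and -0.075 in the other genes. Over all 812 other genes with a mean signal of 6 or more the median change was -0.082, and 0.0054 after quantile normalization.

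**Figure D3:**
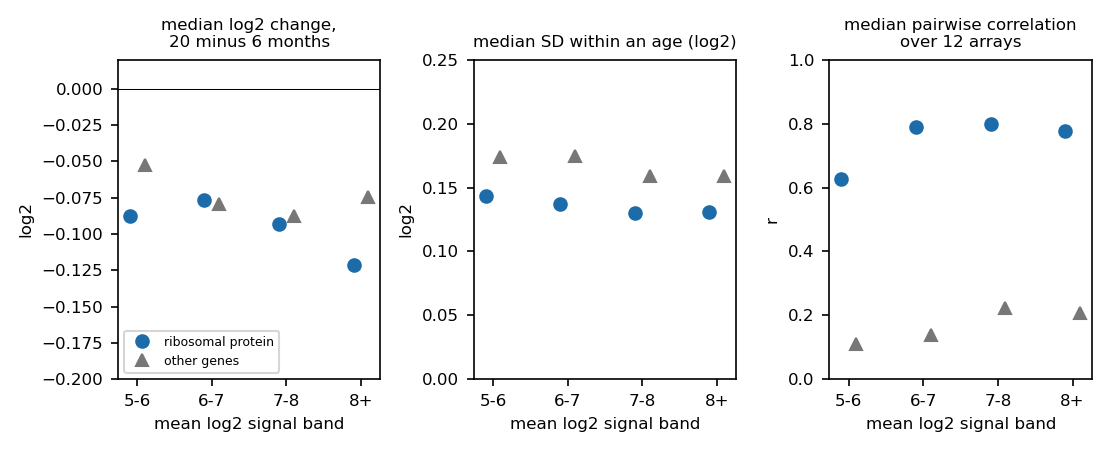
Ribosomal protein genes (circles) and other genes (triangles) in 4 bands of mean log2 signal: median log2 change, 20 minus 6 months (left), median SD within an age (middle) and median pairwise correlation over 12 arrays with age means removed (right). The members' SD is lower and their correlation higher in all 4 bands, while the changes lie on both sides of those of the other genes.

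The genes moved together from array to array. With the age means removed, the correlation of 2 members over the 12 arrays had a median of 0.77 over 2926 pairs, with quartiles of 0.66 and 0.85, and 90.2% of the pairs lay above 0.5. Among the other genes of the same signal bands the median lay between 0.11 and 0.22. These pairs share their arrays and the scaling constant of each array, and are given as a description. The median was 0.77 within the large subunit, within the small subunit and between both. One component held 72.6% of the residual variance. With quantile normalization the median correlation was 0.74 in members and 0.083 in the 812 other genes with a mean signal of 6 or more, and with median scaling 0.91 in members and 0.61 in the others.

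The members' mean was lowest in replicate 6 at 6 months, at -0.16, and highest in replicates 1 and 4 at 6 months, at 0.20 and 0.18. At 20 months it lay between -0.14 in replicate 5 and 0.086 in replicate 6. The 6 months arrays therefore held both extremes, and the 20 months arrays lay between them. The 2 highest arrays are also those with high heart muscle and T and NK cell markers at that age, whereas replicate 1 at 20 months, the highest in heart muscle markers, had a members' mean of -0.017. The 6 smooth muscle markers, all above background on every array, had centred means from -0.22 to 0.17 at 20 months and from -0.41 to 0.17 at 6 months. Their lowest arrays were replicates 6 and 3 at 6 months, at -0.41 and -0.27, which were also the lowest at that age in the members' mean. The same arrays had the highest centred means of the brown adipocyte markers, 0.81 and 0.73. Replicate 4 at 6 months, among the highest in the members' mean, had 0.38 in these markers. The white adipocyte markers had 0.26 and 0.39 on the low arrays, and 0.26 in replicate 1 at 6 months, the highest in the members' mean. The part of smooth muscle or fat content in the members' values was not tested. The 5 mesothelial markers were all negative, with a median of -1.90, but none stood above background on all 12 arrays. All 7 macrophage, 3 tested erythroid and 2 tested B cell markers were positive, with medians of 0.30, 0.60 and 0.41. None of these genes was called, and their part in the members' values was not tested either. Without the 3 arrays high in heart muscle or T and NK cell markers, 51 genes were negative and 26 positive, with a median of -0.028. Leaving out single arrays gave medians between -0.13 and -0.063. Within slides, with 2 arrays of each age and no test, the median change was -0.00070 on slide 1 (39 genes negative, 38 positive), -0.16 on slide 2 (76 negative, 1 positive), and -0.11 on slide 3 (72 negative, 5 positive).

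**Figure D4:**
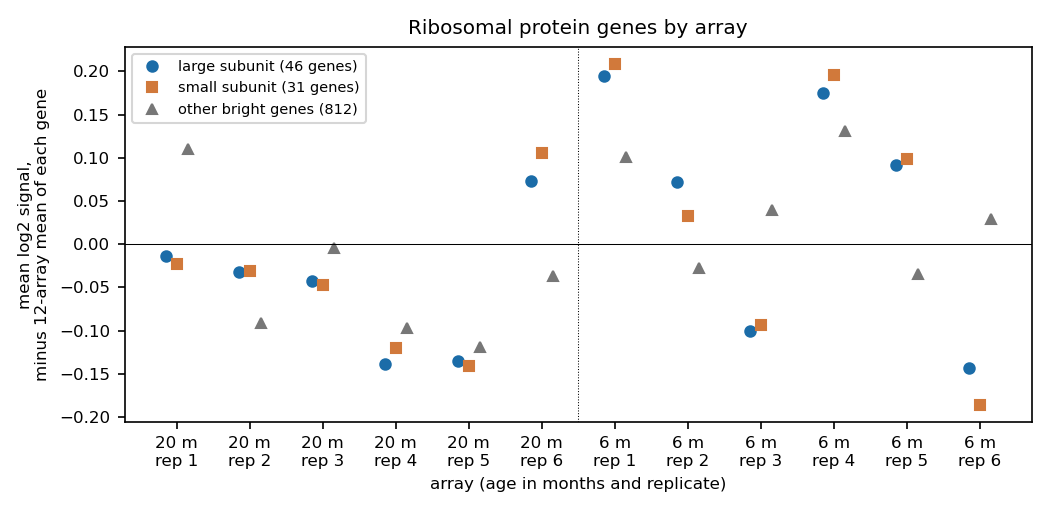
Mean of the large subunit genes (circles), small subunit genes (squares) and 812 other genes with a mean signal of 6 or more (triangles) on each array, each gene centred on its 12 arrays, in log2 units, with 20 months left of 6 months. Circles and squares stay close on every array, from -0.19 to 0.21, and the ages overlap.

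A few genes stood apart from this shared movement. The correlation with the mean of the other members exceeded 0.7 in 73 genes, and was 0.10 in Rpl21, 0.32 in Rps27l and 0.55 in Rplp2. The log2 signals of Rpl21 lay below 0 on every array, which is below the array's 75th percentile, and Rps27l is the sole tested paralog.

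Of the 53 genes with several probes, 51 had at least 2 that entered the test, and these were mostly close to each other. The range of the changes over the probes of a gene had a median of 0.070 log2 and was under 0.1 in 36 of the 51 genes. All probes were negative in 41 of them. Wide ranges were those of Rpl6 (0.56), Rpl17 (0.44) and Rps15a (0.24). In Rpl6 the range came from 1 probe, with a change of 0.45 ± 0.24, that stood above background on 5 arrays at 20 months and 2 at 6 months, whereas the other 3 probes had changes from -0.11 to -0.068.

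Single arrays set the remaining cases. The Rps15a probe with the highest signal had 4.75 in replicate 6 at 6 months and between 6.22 and 6.70 on the other 11 arrays. The second Rps15a probe had 5.82 on that array and between 5.84 and 6.34 elsewhere. Its change was -0.10 ± 0.10, against 0.14 ± 0.27 for the first, and without replicate 6 at 6 months the first probe gave -0.15. An Rpl7a probe likewise had 6.07 on that array and between 6.50 and 6.98 on the others, and without the array its change was -0.19 in place of -0.052. One of the 7 Rpl17 probes had 2.14 in replicate 5 at 20 months, where its other values lay between 3.96 and 4.97.
The Rps15a probes differ in place, at chr7:125252644-125252703 and chr7:125253453-125253512 on the - strand of build mm9, and are shown to tell the discordant one (first line) from the other.
Rps15a first probe: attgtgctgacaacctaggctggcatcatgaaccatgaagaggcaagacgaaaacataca
Rps15a second probe: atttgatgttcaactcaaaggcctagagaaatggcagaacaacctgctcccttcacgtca

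**Figure D5:**
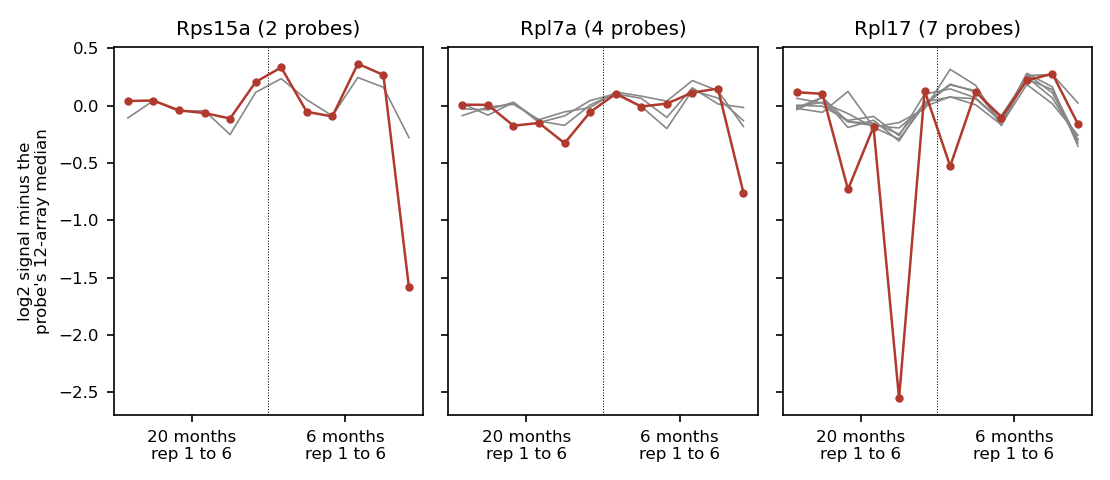
Log2 signal of each tested probe of Rps15a, Rpl7a and Rpl17 by array, minus the probe's median over the 12 arrays, with 20 months left of 6 months. The red line in each panel is the probe with a single low array, and the grey lines are the other probes of the gene.

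Probes with the same gene name were not always the same sequence. Ribosomal protein genes have many processed pseudogene copies, and 63 of the 168 member probes, from 41 genes, shared a run of at least 25 bases with a probe of another name. In 13 genes every probe did, and signals of such genes cannot be assigned to one locus with certainty. The array files placed 11 probes of 6 genes on another chromosome than the RefSeq table gives for the gene. They were probes of Rps29, Rps4x, Rpl13, Rps27, Rpl31 and Rpl36. In Rps4x, Rps27 and Rps29 this held for every probe, and in Rpl31 for the probe that stood for the gene. Without the probes that share such a run, 64 genes were left, 58 negative and 6 positive, with a median of -0.081. Of 55 probes named as pseudogenes of members, 51 entered, 0 were called, and their median change was -0.084, with 43 negative and 8 positive.

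Rplp0 and Rpl7a show such differences, and their probes are printed for that reason with differing bases in capitals, 5′ to 3′ on the + strand of build mm9. The Rplp0 probes lie at chr5:116013404-116013463 (first) and chr5:116013397-116013456 (second). They share 53 positions, of which 5 differ: G8A, A10T, G24A, T35C and T44C, with the first probe's base first and positions counted from 1 at its 5′ end.
Rplp0 first probe: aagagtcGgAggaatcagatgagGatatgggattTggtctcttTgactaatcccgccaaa
Rplp0 second probe: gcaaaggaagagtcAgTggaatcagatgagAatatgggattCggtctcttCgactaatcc
The first probe, used above, had the change of -0.19, and the second had -0.083 ± 0.079 (SE). Both share a run of at least 25 bases with a probe of another name. Rplp0 had 3 tested probes, and the remaining one, which shares no such run, had a change of -0.15. For Rpl7a the array files give 2 probes the same place, and 6 of their 60 positions differ: T24C, G26A, T37C, G38A, G41A and A52C. The stretch from position 24 to 52 (chr2:26768782-26768810) holds all of them.
Rpl7a first probe: TgGgttaaatgtaTGctGaattttctgtA
Rpl7a second probe: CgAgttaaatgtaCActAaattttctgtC
The first is the probe with the low array. The second had 4.31 on that array and between 4.37 and 4.71 on the others, and a change of -0.11 ± 0.075.

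Other lists of known genes, chosen around the translation apparatus, were looked at, and none of their genes passed the test. A list of ribosomal proteins outside the name rule held Fau and Rack1, and also paralogs with Rpl names, such as Rpl36al and Rpl7l1. Its genes were negative in 5 of 6 cases, with a median of -0.15, or -0.077 after quantile normalization. The positive one was Rpl7l1, at 0.025. A list of genes known for a TOP tract held translation factors and also others, such as Vim, Npm1 and Hnrnpa1. Their tracts were not looked up here. Of these genes 14 of 17 were negative (median -0.061), and 8 of 17 after quantile normalization. Once the 3 arrays high in heart muscle or T and NK cell markers were left out, 4 of 17 were negative. Ribosome biogenesis factors were positive in 18 of 26 genes with a median of 0.043 under the percentile scaling, in 18 with normexp, in 21 after quantile normalization, and in 20 without those arrays. Bop1, a factor of large subunit maturation, had a change of 0.17 ± 0.066 (adjusted p = 0.514 in limma). A list of S6 kinase and mTOR genes also held Larp1, Myc and Max. Its genes were positive in 12 of 20, with a median of 0.018, and in 9 of 20, with a median of -0.034, without those arrays.

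The mitochondrial ribosomal proteins, which form the separate ribosome inside the organelle, were negative in 77 of 79 genes with a median of -0.17, and in 75 to 77 genes under the other scalings. The 79 names include Mrps36-ps2 (-0.28) and Mrpl27-ps (-0.13), which are pseudogenes by name. Without the 3 arrays high in heart muscle or T and NK cell markers 78 of the 79 were negative, with a median of -0.26. Their array means ran from -0.22 to 0.30 at 20 months and from -0.18 to 0.37 at 6 months. They were highest in replicate 6 at 6 months, where the cytosolic members were lowest. In replicate 1 at 20 months, the array with the highest heart muscle markers, the mitochondrial mean was 0.30 and that of the cytosolic members -0.017. The 8 brown adipocyte markers, all above background on every array, were all negative (median -0.42), 7 of 8 under median scaling. Their centred means ran from -0.48 to 0.52 at 20 months and from -0.42 to 0.81 at 6 months. They were highest in replicate 1 at 20 months (0.52) and in replicates 6 and 3 at 6 months (0.81 and 0.73), the 3 arrays with the highest mitochondrial means. The part of brown fat in the mitochondrial values was not tested.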

How the data were processed

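RNA of 12 aortas was measured, 6 at 20 months and 6 at 6 months. Per the file headers, the authors extracted the scans with Agilent Feature Extraction 10.7.1.1, and the deposited intensity used here is the processed green signal, background-subtracted and not scaled between arrays. The authors also deposited log2 values for these arrays. How those were made is not given in the sources used here, and they served as an alternative.

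Outlier spots were dropped, the spots of a probe averaged, log2 taken and the 75th percentile over gene probes subtracted. Probes were named by accession through a RefSeq table of GRCm38.p6 (26413), by symbol (4594) or by their own name (4779). Probes well above background on at least 6 of 12 arrays entered, 27579 in all, and the brightest probe stood for each of 16850 genes. Ages were compared with limma 3.58.1 in R 4.3.3, fitting age alone, with Benjamini-Hochberg adjustment over all genes at 0.05. The procedure was tested on simulated data.

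The members, lists, tests and the rule for named genes were chosen with earlier results of these data known. The rule takes the 8 members with the smallest p in each direction (4 where no more had that sign), the 4 with the highest and the 4 with the lowest mean signal, the 4 with the highest SD, the 4 whose probes differ most, and a list always given; Rps29, Rpl13 and Rpl31 are named outside it, after their values were seen. A few single genes are not reported here. Alternatives were median scaling, quantile normalization, normexp (offset 50), the authors' log2 values, other filters and probe rules, slide and replicate blocks, array weights and each array left out. With 6 arrays an age, their number limits the precision.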

Additional observations from a re-analysis of the deposited data

Results flagged for a closer look

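Among 70 groups of 6 arrays looked at for the named genes, 4 held 1 value far from its neighbours, and chance gives about 1 in 20. Rps15a had 4.75 in replicate 6 at 6 months, where the nearest of the other 5 values was 6.24. Rpl7a had 6.07 on the same array, with 6.82 as the nearest value. In both genes another probe did not show a gap of that size on this array. At 20 months, replicate 6 was far above the rest in Rpl22, with 7.02 against 6.76 for the nearest, and in Rps14, with 9.35 against 9.20. That array also had the highest mean of all members at 20 months, 0.086.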

How the results depend on the processing

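In all 28 alternatives with a test, 0 members were called by limma. The lowest adjusted p of a member was 0.159 in limma, without the filter on dim probes, where Rplp0 had 0.785. That setting also let in the 3 paralogs that the main test left out as dim. Over the alternatives the adjusted p of Rplp0 lay between 0.181 and 0.9999. At an unadjusted p under 0.05 the count of 7 became 23 with array weights (median change -0.15), 14 without replicate 6 at 6 months, and 0 after quantile normalization, median scaling, in the value table, with a replicate block, and without replicate 5 at 20 months or replicate 1 at 6 months. The count was 3 with the mean over the probes of a gene, and 3 of 64 genes without the probes with shared runs. The share of all genes at that level was not counted in these settings, so these counts are no result about the members. Median scaling gave a median SD of 0.221. With single arrays left out, 0 members were called in each case, the median change ran from -0.13 to -0.063, the large minus small difference from -0.013 to 0.0084, and the median SD from 0.120 to 0.139. Of 33 named genes, 11 changed sign under quantile normalization and in the value table, and 8 with the 3 arrays high in heart muscle or T and NK cell markers left out, an alternative chosen after seeing the data. Also chosen after seeing the data were leaving out the 2 arrays with the largest share of spots above background (median -0.055, 62 negative and 15 positive) and the probes with shared runs. Of all genes, 53 were called, against 33 with median scaling, 23 without the filter, 122 with array weights, 6 with a replicate block, and 30 and 15 without the 3 and the 2 arrays. With single arrays left out the count ran from 21 to 59. Fitting the replicate number as a replicate block gave 0 members with a lowest adjusted p of 0.720. The numbers do not pair the mice: same-numbered arrays had correlations of 0.011, 0.32, 0.085, 0.14, 0.024 and -0.36, and 2 of 12 arrays correlated best with their own number. Leaving out saturated spots was not run, because there were none.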
